A study of Mus musculus with 12 samples.

Results

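The 39 genes described here carry out or time DNA replication: the proteins that license and fire origins, the polymerases with their clamp and Okazaki fragment enzymes, the nucleotide synthesis enzymes, and the cyclins, cyclin-dependent kinases (CDKs) and E2F factors of the step from G1 to S phase. They were taken by gene symbol from a fixed list, through probe sets annotated to a single gene, with the brightest probe set standing for each gene. All 39 were measured, among 18193 genes in all, and no member had a signal at the floor on any array. They fall into 15 licensing and origin genes, 11 genes of polymerases, clamp and Okazaki fragments, 4 nucleotide synthesis genes and 9 cyclin, CDK and E2F genes.

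In G1 the origin recognition complex, together with Cdc6 and Cdt1, loads the ring-shaped MCM helicase onto DNA, and geminin later blocks Cdt1 so that no origin is licensed again in the same cycle. Cyclin D with Cdk4 or Cdk6, and then cyclin E with Cdk2, phosphorylate the retinoblastoma protein, which releases E2F factors that switch on the replication genes. The inhibitor p21, encoded by Cdkn1a, restrains cyclin-CDK complexes and binds the replication clamp, and mutant K-ras drives signalling that raises cyclin D.

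RNA came from 4 mouse lung adenocarcinoma cell lines. KC1, KC2 and KC3 were classed by the submitters as highly metastatic and KC4 as poorly metastatic, with 3 biological replicates of each line on 1 Affymetrix array each. Every sample, KC4 included, carries the same genotype, K-rasLA1/+; Cdkn1a-/- on a 127s background. The study compared lines of high and low metastatic potential grown from primary tumours, and as KC4 is the only poorly metastatic line, class and line cannot be told apart. The labels speak of 6 tumours and 4 mice without tying a line to a mouse, and name no culture or passage for a replicate, so p-values measure only the spread between these replicates.

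Arrays of one line correlated at r = 0.980 to 0.986 across genes, which are not independent replicates. The deposited signals were scaled to a common trimmed mean, and KC3 had a median log2 signal of 7.63 to 7.78 over genes, against 7.76 to 7.92 on the other arrays. On the brighter of its 2 probe sets Cdkn1a had a mean signal of 7798 ± 457 in KC1, 5898 ± 504 in KC2 and 6720 ± 507 in KC3, with 4355 ± 478 in KC4 (SD, n = 3 each). The other lay under the floor, and the sources used here do not say which part of the gene each covers, so neither checks the deletion. The 7 epithelial markers had line means of 10.31 to 14.53 on the log2 scale. Of the markers of other cells, 5 lung lineage genes reached at most 8.15 with Napsa at the floor on every array, 7 fibroblast genes at most 7.59 with Pdgfrb at the floor, 5 endothelial genes at most 7.82 with Vwf at the floor, and 6 leukocyte genes at most 8.34. Nkx2-1, one of these lung lineage markers, averaged 4.18 ± 0.32 in KC1, 4.42 ± 0.22 in KC2 and 4.82 ± 0.34 in KC3, with 5.41 ± 0.63 in KC4, near the floor of 4.00. That marker does not bear out the lung label of the lines, and its low signal does not by itself test their origin. The 5′-end probe set of the 18S ribosomal RNA control gave signals of 369 to 679 in KC1, KC2 and KC3, against 2706 to 4383 in KC4. The 3′-end set gave 479 to 643, against 777 to 947 in KC4, and the middle set 261 to 324, against 462 to 594. This gap runs along with every difference from KC4 below, and its part in them was not tested.

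The sequences below are shown because many members share promoter letters that E2F factors are known to bind. RefSeq promoter windows on assembly GRCm38.p6, from 250 bases before to 50 after the annotated start, were at hand for 31 of the 39 members. Mcm5 (chr8:75109259-75109558, plus strand), Mcm6 (chr1:128359656-128359955, minus strand) and Cdc6 (chr11:98907901-98908200, plus strand) are members with a low signal in KC3. Mcm7 (chr5:138171834-138172133, minus strand) is a helicase subunit whose arrays overlapped between KC3 and KC4 on the probe set used. All 4 are printed 5′ to 3′ along the gene, and capitals mark the E2F words found on either strand.
Mcm5: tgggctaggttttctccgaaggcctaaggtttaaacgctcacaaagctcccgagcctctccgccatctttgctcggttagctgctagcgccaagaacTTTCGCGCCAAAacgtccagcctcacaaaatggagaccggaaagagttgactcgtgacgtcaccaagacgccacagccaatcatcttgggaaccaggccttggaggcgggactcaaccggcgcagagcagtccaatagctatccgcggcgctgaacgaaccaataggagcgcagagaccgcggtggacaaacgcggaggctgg
Mcm6: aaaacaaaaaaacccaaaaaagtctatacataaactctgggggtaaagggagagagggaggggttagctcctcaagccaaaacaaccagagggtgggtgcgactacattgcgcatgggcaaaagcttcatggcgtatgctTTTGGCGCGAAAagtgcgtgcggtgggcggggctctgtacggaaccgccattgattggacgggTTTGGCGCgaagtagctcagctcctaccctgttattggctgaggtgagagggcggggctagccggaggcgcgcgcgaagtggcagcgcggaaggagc
Cdc6: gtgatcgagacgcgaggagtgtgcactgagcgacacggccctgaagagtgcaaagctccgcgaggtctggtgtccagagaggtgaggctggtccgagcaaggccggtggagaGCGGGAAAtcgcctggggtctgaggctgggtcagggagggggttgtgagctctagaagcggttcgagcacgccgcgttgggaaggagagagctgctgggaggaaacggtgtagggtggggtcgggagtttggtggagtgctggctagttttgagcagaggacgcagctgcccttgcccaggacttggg
Mcm7: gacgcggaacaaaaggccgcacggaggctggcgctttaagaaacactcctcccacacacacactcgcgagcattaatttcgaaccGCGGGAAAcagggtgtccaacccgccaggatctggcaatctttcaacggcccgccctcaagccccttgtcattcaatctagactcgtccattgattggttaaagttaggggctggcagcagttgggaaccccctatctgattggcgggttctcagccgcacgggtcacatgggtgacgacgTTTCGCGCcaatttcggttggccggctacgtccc

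The words searched were TTTCCCGC, TTTGGCGC, TTTCGCGC and TTTGCCGC on both strands. Mcm5 held 2 of them, which overlap, at 153 and 149 bases before the start. Mcm6 held 3, at 110, 106 and 47 bases before the start, the first and second of which overlap. Cdc6 held 1 at 138 bases before the start, and Mcm7 held 2, at 165 bases before and 16 after it. RefSeq gives a second Mcm7 window (chr5:138171217-138171516, minus strand), which held none, and the one with E2F words is printed. E2f2, Fen1 and Lig1 also have more than 1 window, and a gene was counted where any of its windows held the word. By this count at least 1 E2F word stood in 13 of the 31 members (41.9%), in 0 of 23 mitotic genes with a window, in 550 of 14452 genes tested (3.81%) and in 704 of all 27025 genes with a window (2.60%). Counted by window it stood in 13 of 36 windows of members (36.1%), against 744 of all 32851 windows (2.26%). Among members lower in KC3 than in each other line, at a limma adjusted p under 0.05 and any size, 8 of 18 held one, and among the other members 5 of 13. The word TTTGAA, the core of the element known from mitotic promoters, was present in 4 of 31 members (12.9%), against 18 of 23 mitotic genes (78.3%) and 20.2% of all genes with a window. CCAAT was present in 18 of 31 members (58.1%), 18 of 23 mitotic genes and 41.1% of all genes with a window. A match is a description of these letters, and none says whether a factor binds in these cells.

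KC3 stood apart in this gene group. The median log2 difference over the 39 members was -0.68 in KC3 minus KC4, against a median of -0.02 over all 18193 genes, and 35 of the 39 members lay below 0. The same median was -0.08 in KC1 minus KC4 and -0.22 in KC2 minus KC4, where the medians of all genes were 0.00 in both. These comparisons share the KC4 arrays. A gene is called here at a Benjamini-Hochberg adjusted p under 0.05 in limma, fitted over all genes with 1 coefficient per line, with a log2 difference of at least 1 in either direction.

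In KC3 minus KC4, 13 members were called lower, where 4.70% of all genes were, and 1 was called higher, where 3.52% were. At any size of difference 31 members were lower and 2 higher, against 16% and 17.8% of all genes. In KC2 minus KC4, 3 members were called lower (4.46% of all genes), with 19 lower and 4 higher at any size (17.5% and 18%). In KC1 minus KC4, 1 member was called lower (2.05%), with 9 lower and 4 higher at any size (12.2% and 13.5%). KC3 was also lower than the other highly metastatic lines at any size for 29 members against KC1 (16.6% of all genes) and 28 against KC2 (19.1%), whereas KC2 was lower than KC1 for 16 (14.1%). For 6 members, Cdc6, Rfc3, Tyms, Gins1, Ccnd2 and Cdk6, a pair of highly metastatic lines passed the test against KC4 in opposite directions and differed from each other, as did 7.62% of all genes. Bulk RNA cannot tell fewer cells in S phase from less RNA per such cell.

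**Figure D1:**
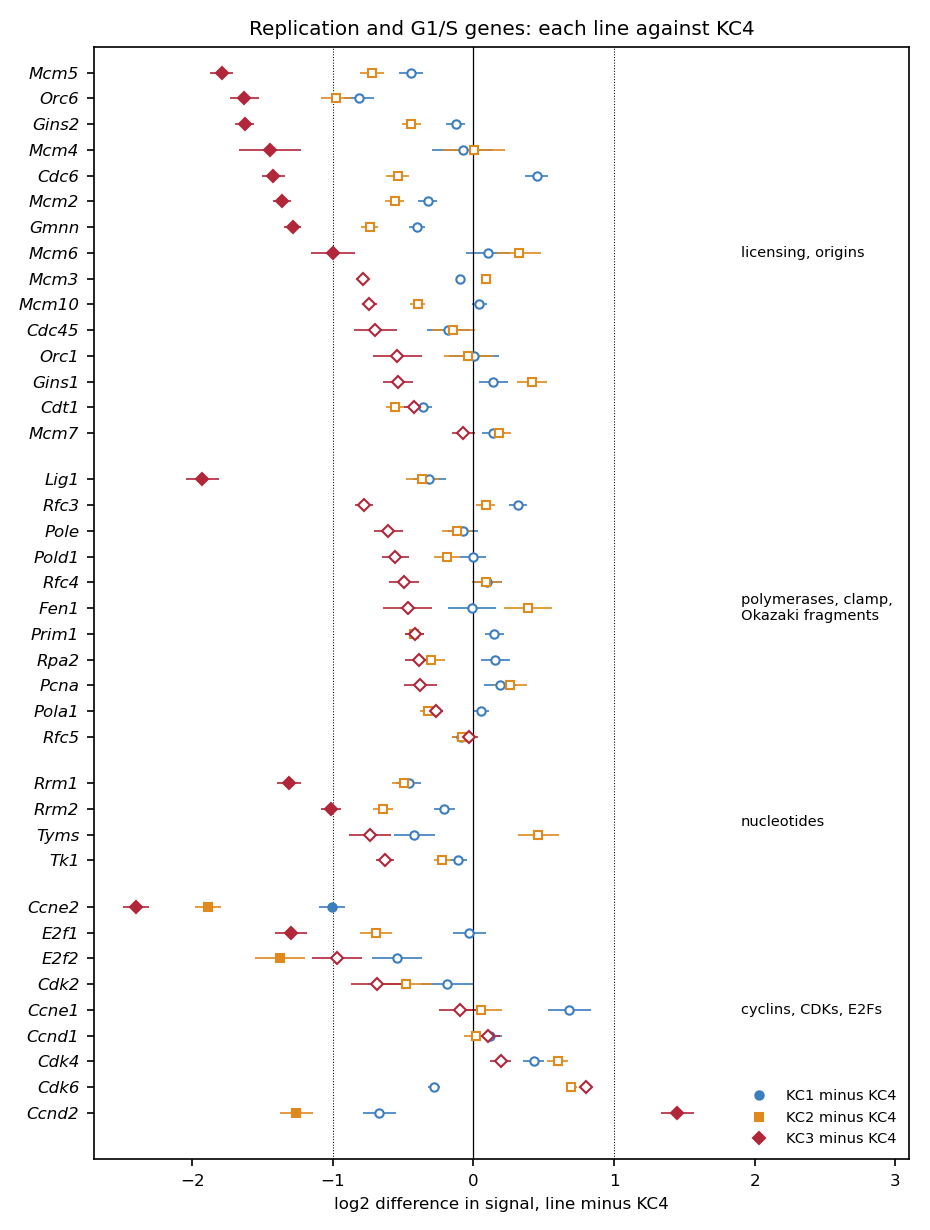
Each row is 1 of the 39 genes, grouped by role and sorted by the KC3 difference; the x axis is the log2 difference in signal of KC1 (circles), KC2 (squares) or KC3 (diamonds) minus KC4, with bars of 1 SE from the limma fit. Filled symbols are called and dotted lines mark a difference of 1 in either direction; most KC3 diamonds lie left of 0, down to -2.40 for Ccne2, while Ccnd2 lies at 1.45.

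Centring each array on its own median, in place of the deposited scaling, moved the median of all genes to 0.11 in KC3 minus KC4. The median of the members was then -0.55, with 32 of 39 below 0 and 12 called, 11 of them lower. The 4.70% of all genes called lower belongs to the deposited scaling, and no such share is given beside these calls. The members are brighter than most genes, with a median of 10.83 for their mean log2 signal, against 7.80 for all genes. Among the 6778 genes with a mean log2 signal of at least 9, a level chosen after the data had been seen, 34 were members. Of these, 12 were called lower in KC3 minus KC4, where 4.06% of such genes were, and 27 were lower at any size, where 24.3% were.

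Of the helicase subunits, all but Mcm7 were lower in KC3 than in KC4. Mcm5 had log2 signals of 12.32, 12.62 and 12.55 in KC1, 12.28, 12.16 and 12.22 in KC2 and 11.26, 11.11 and 11.08 in KC3, against 12.96, 12.86 and 13.01 in KC4. All KC3 arrays lay below all others and all KC4 arrays above all others. The difference was -1.79 (SE 0.08, limma adjusted p = 4.64e-07) in KC3 minus KC4, -0.44 in KC1 minus KC4 and -0.72 in KC2 minus KC4.

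Mcm4 had 10.85, 10.60 and 11.01 in KC3, against 11.89, 12.31 and 12.36 in KC1, 12.62, 11.83 and 12.37 in KC2 and 12.03, 12.43 and 12.35 in KC4. Its 3 KC3 arrays lay below the 9 others, while the arrays of the other lines overlapped. The fit gave -1.45 (SE 0.22, limma adjusted p = 0.000754) in KC3 minus KC4 and -0.08 and 0.00 for KC1 and KC2 minus KC4. Mcm6 had 11.42, 10.90 and 11.16 in KC3, against 12.14, 12.33 and 12.32 in KC1, 12.29, 12.70 and 12.46 in KC2 and 12.37, 12.05 and 12.06 in KC4. Its KC3 arrays again lay below the 9 others, which overlapped. The difference in KC3 minus KC4, -1.0 (SE 0.15, limma adjusted p = 0.000855), stood at the minimum size for a call, and it was -0.87 with arrays centred on the median. A second Mcm6 probe set, nearly as bright, has a name ending in x_at, a design that can pick up related transcripts. It averaged 10.70 ± 0.14 in KC3, against 12.25 ± 0.15 in KC4. All KC3 arrays of that set lay below all others.

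Mcm2 had 11.02, 11.25 and 11.08 in KC1, 10.93, 10.87 and 10.85 in KC2 and 10.03, 10.20 and 10.01 in KC3, against 11.46, 11.40 and 11.47 in KC4. The lines stepped down in the order KC4, KC1, KC2 and KC3, with KC3 below and KC4 above all other arrays, and KC3 minus KC4 was -1.36 (SE 0.07, limma adjusted p = 7.36e-07). Mcm3 had 11.60, 11.59 and 11.54 in KC3, against 12.23, 12.29 and 12.29 in KC1, 12.44, 12.43 and 12.49 in KC2 and 12.33, 12.37 and 12.39 in KC4. Its KC3 arrays lay below the 9 others, with a KC3 minus KC4 difference of -0.79 (SE 0.03, limma adjusted p = 2.35e-07). A dimmer Mcm3 probe set gave -0.20 (adjusted p = 0.358, in a fit over the probe sets, as for every other set beside the one used). On each remaining Mcm3 probe set all KC3 arrays lay below all others. Their means were 9.58, 9.62 and 6.46 in KC3, against 10.45, 9.96 and 7.45 in KC4.

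Mcm7, which completes the hexamer, did not follow its partners in KC3 minus KC4. It averaged 12.92 ± 0.05 in KC1, 12.96 ± 0.06 in KC2 and 12.71 ± 0.09 in KC3, with 12.78 ± 0.16 in KC4, and its arrays overlapped between KC3 and KC4. Its KC3 minus KC4 difference of -0.07 (SE 0.08, limma adjusted p = 0.571) did not pass the test. The 3 other Mcm7 probe sets gave -0.03, -0.10 and -0.52 in the same comparison, none of them past the test. Even so, KC3 had the lowest mean of the lines on every Mcm7 probe set. On the sets with -0.10 and -0.52 all KC3 arrays lay below all others. Against KC2, Mcm7 on the probe set used was lower in KC3 at a limma adjusted p under 0.05.

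Of the factors that load and fire the helicase, Cdc6 separated all 4 lines. Its log2 signals were 11.01, 10.98 and 10.90 in KC1, 9.96, 9.93 and 10.04 in KC2 and 9.26, 9.09 and 8.92 in KC3, against 10.61, 10.47 and 10.46 in KC4. No line overlapped another: KC1 was highest, then KC4, KC2 and KC3. Cdc6 was higher in KC1 than in KC4 by 0.45 (SE 0.08, limma adjusted p = 0.0032) and lower in KC2 and KC3, with differences of -0.54 (adjusted p = 0.000672) and -1.43 (adjusted p = 1.91e-06).

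Orc6, the smallest subunit of the origin recognition complex, had 9.70, 9.82 and 9.69 in KC1, 9.51, 9.67 and 9.55 in KC2 and 8.91, 9.14 and 8.72 in KC3, against 10.68, 10.49 and 10.49 in KC4. KC3 lay below and KC4 above all other arrays, while KC1 and KC2 lay close together. The differences from KC4 were -0.81 in KC1, -0.98 in KC2 and -1.63 (SE 0.11, limma adjusted p = 3.9e-06) in KC3. Orc1, the ATPase subunit of the complex, averaged 8.34 ± 0.28 in KC3, against 8.89 ± 0.13 in KC1, 8.85 ± 0.27 in KC2 and 8.89 ± 0.19 in KC4, a KC3 minus KC4 difference of -0.54 (adjusted p = 0.0414) on the probe set used. A second, slightly dimmer Orc1 probe set gave -1.52 and was called.

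Gins2, a subunit of the GINS complex that activates the helicase, had 9.21, 9.07 and 9.05 in KC3, against 10.62, 10.68 and 10.56 in KC1, 10.38, 10.32 and 10.20 in KC2 and 10.73, 10.84 and 10.65 in KC4. KC3 lay more than 1 below every other line. The difference was -1.63 (SE 0.07, limma adjusted p = 2.53e-07) in KC3 minus KC4, -1.50 in KC3 minus KC1 and -1.19 in KC3 minus KC2. Its partner Gins1 and the helicase cofactor Cdc45 were lower in KC3 by less, at -0.54 (adjusted p = 0.00337) and -0.70 (adjusted p = 0.00632) in KC3 minus KC4. Gins1 was higher in KC2 than in KC4, with a difference of 0.42 (adjusted p = 0.0123).

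Gmnn, which encodes geminin, had 11.51, 11.35 and 11.36 in KC1, 11.06, 11.14 and 11.00 in KC2 and 10.58, 10.50 and 10.49 in KC3, against 11.87, 11.82 and 11.73 in KC4. The 4 lines did not overlap and ran in the order KC4, KC1, KC2 and KC3, with KC3 minus KC4 at -1.29 (SE 0.06, limma adjusted p = 4.21e-07). Cdt1, the loader that geminin inhibits, behaved otherwise. It averaged 12.34 ± 0.04 in KC1, 12.15 ± 0.05 in KC2 and 12.28 ± 0.07 in KC3, with 12.71 ± 0.13 in KC4, so KC4 was above each highly metastatic line, with differences of -0.36 (adjusted p = 0.00317), -0.56 (adjusted p = 0.000141) and -0.43 (adjusted p = 0.000842) in KC1, KC2 and KC3, and KC3 minus KC1, at -0.06 (SE 0.07), did not pass the test. Mcm10, a scaffold that recruits polymerase alpha, had 10.09, 9.99 and 10.12 in KC1, 9.58, 9.65 and 9.65 in KC2 and 9.33, 9.17 and 9.34 in KC3, against 9.99, 10.02 and 10.06 in KC4. KC3 lay lowest and KC2 next, while KC1 and KC4 overlapped, and the differences from KC4 were -0.74 (adjusted p = 7.33e-06) in KC3 and -0.39 (adjusted p = 0.000311) in KC2. Over the 15 licensing and origin genes the median difference in KC3 minus KC4 was -1.0, with 8 called lower and 14 lower at any size, Mcm7 being the exception.

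**Figure D2:**
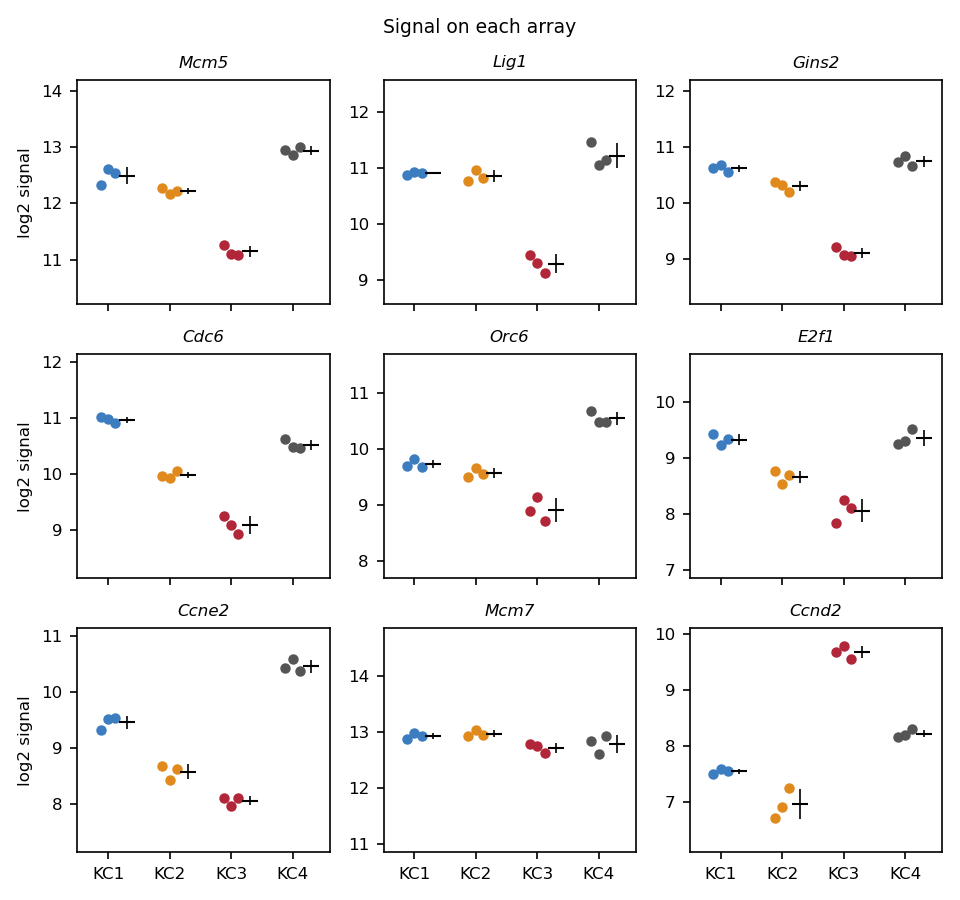
Log2 signal (y axis, a span of 4 in every panel) on each of the 12 arrays for 9 genes, with KC1, KC2, KC3 and KC4 from left to right, points for arrays and a black bar for the line's mean ± SD (n = 3). KC3 is lowest for Mcm5, Lig1, Gins2, Cdc6, Orc6, E2f1 and Ccne2, the lines lie close together for Mcm7, and KC3 is highest for Ccnd2.

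Among the polymerase, clamp and Okazaki fragment genes, Lig1, the ligase that seals Okazaki fragments, was the only one called in KC3 minus KC4. It had 9.44, 9.30 and 9.11 in KC3, against 10.88, 10.92 and 10.91 in KC1, 10.77, 10.96 and 10.82 in KC2 and 11.46, 11.04 and 11.14 in KC4. KC3 lay more than 1 below every other line, and the other 3 lines lay within 0.5 of each other. The differences were -1.93 (SE 0.12, limma adjusted p = 2.59e-06) from KC4, -1.62 from KC1 and -1.56 from KC2.

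The other members of this group moved by less. Rfc3, a subunit of the clamp loader, had 9.91, 9.90 and 9.77 in KC1, 9.70, 9.61 and 9.56 in KC2 and 8.78, 8.78 and 8.71 in KC3, against 9.64, 9.55 and 9.42 in KC4. KC3 lay below and KC1 above all other arrays, while KC2 and KC4 overlapped. It was lower in KC3 than in KC4, with a difference of -0.78 (adjusted p = 1.97e-05), and higher in KC1, with 0.32 (adjusted p = 0.00611). A second loader subunit, Rfc4, had -0.50 (adjusted p = 0.00513) in KC3 minus KC4, while Rfc5 was level over the lines, between 11.21 and 11.29, with a KC3 minus KC4 difference of -0.03 (adjusted p = 0.808).

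The catalytic subunits Pold1 and Pole, of the lagging and leading strand polymerases, had -0.55 (adjusted p = 0.00137) and -0.61 (adjusted p = 0.00173) in KC3 minus KC4. Pcna, the sliding clamp, had -0.38 (adjusted p = 0.0315), and Rpa2, of the complex that coats single-stranded DNA, had -0.39 (adjusted p = 0.0158). Prim1, a primase subunit, and Pola1, the catalytic subunit of polymerase alpha, were lower in KC2 as well as in KC3. Prim1 had -0.42 (adjusted p = 0.000992) in KC2 and -0.42 (adjusted p = 0.0012) in KC3, and Pola1 had -0.32 (adjusted p = 0.00129) and -0.27 (adjusted p = 0.00426). Fen1, the nuclease that trims Okazaki fragments, did not pass the test on the probe set used (-0.47 (adjusted p = 0.0667)), but a dimmer probe set gave -1.05 and was called. Over the 11 genes the median in KC3 minus KC4 was -0.47, with 9 lower at any size, Fen1 and Rfc5 being the exceptions.

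All 4 nucleotide synthesis genes were lower in KC3 than in KC4. Rrm1, the large subunit of ribonucleotide reductase, had 11.61, 11.79 and 11.68 in KC1, 11.64, 11.69 and 11.65 in KC2 and 10.99, 10.87 and 10.66 in KC3, against 12.26, 12.07 and 12.12 in KC4. KC3 lay below and KC4 above all other arrays, and KC3 minus KC4 was -1.31 (SE 0.09, limma adjusted p = 4.21e-06). Rrm2, the small subunit, had 13.14, 13.03 and 13.11 in KC1, 12.76, 12.56 and 12.66 in KC2 and 12.26, 12.19 and 12.42 in KC3, against 13.34, 13.22 and 13.35 in KC4. The lines did not overlap and ran in the order KC4, KC1, KC2 and KC3, with KC3 minus KC4 at -1.01 (SE 0.07, limma adjusted p = 7.1e-06), at the minimum size for a call. With arrays centred on the median it was -0.88 and lost the call. Tk1, the salvage enzyme thymidine kinase, had -0.63 (adjusted p = 5.31e-05). Tyms, thymidylate synthase, had a dim probe set with 5.90, 6.44 and 5.84 in KC1, 6.96, 6.87 and 7.0 in KC2 and 5.88, 5.61 and 5.75 in KC3, against 6.52, 6.55 and 6.37 in KC4. KC2 lay above all other arrays, and the KC1 arrays overlapped those of KC3 and KC4. It was lower in KC3 than in KC4, with a difference of -0.74 (adjusted p = 0.00382), but higher in KC2, with 0.46 (adjusted p = 0.0363). On a second Tyms probe set of similar brightness all KC3 arrays lay below all others, those of KC1 included. That set averaged 6.43 ± 0.13 in KC1, 6.94 ± 0.16 in KC2 and 5.32 ± 0.07 in KC3, with 6.27 ± 0.05 in KC4.

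The cyclins, CDKs and E2Fs did not move as one. Their median in KC3 minus KC4 was -0.10, with 2 called lower and 1 called higher of 9. Ccne2, which encodes cyclin E2, the Cdk2 partner at the start of S phase, showed the widest difference from KC4 of all members. It had 9.31, 9.52 and 9.53 in KC1, 8.67, 8.42 and 8.62 in KC2 and 8.11, 7.96 and 8.11 in KC3, against 10.42, 10.58 and 10.36 in KC4. The 4 lines did not overlap, KC4 lay at least 1 above each other line, and it was called in every comparison with KC4. The differences were -1.0 (SE 0.09, limma adjusted p = 5.74e-05) in KC1, -1.89 (SE 0.09, limma adjusted p = 5.75e-07) in KC2 and -2.40 (SE 0.09, limma adjusted p = 1.54e-07) in KC3. The KC1 difference stood at the minimum size, and it was -0.93 without KC1 replicate 1, -0.94 without KC4 replicate 2 and -0.99 with 16 added to each signal instead of the floor, none of them called.

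The close relative Ccne1, cyclin E1, had another pattern on the probe set used. It averaged 9.61 ± 0.03 in KC1, 8.98 ± 0.03 in KC2 and 8.83 ± 0.31 in KC3, with 8.93 ± 0.23 in KC4. It was higher in KC1 than in KC4 by 0.68 (adjusted p = 0.00938), while KC3 minus KC4 was -0.10 (adjusted p = 0.722). A second, dimmer Ccne1 probe set did not share this pattern, with 0.02 (adjusted p = 0.994) in KC1, -0.53 (adjusted p = 0.0162) in KC2 and -0.43 (adjusted p = 0.0424) in KC3 minus KC4. Their shared partner Cdk2 had -0.68 (adjusted p = 0.0194) in KC3 minus KC4.

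E2f1, the activator that the retinoblastoma protein holds back, had 9.42, 9.22 and 9.33 in KC1, 8.75, 8.54 and 8.68 in KC2 and 7.83, 8.24 and 8.10 in KC3, against 9.25, 9.29 and 9.52 in KC4. KC1 and KC4 overlapped, KC2 lay below both and KC3 below all. The difference from KC4 was -0.03 (adjusted p = 0.94) in KC1, -0.69 (adjusted p = 0.00119) in KC2 and -1.30 (SE 0.12, limma adjusted p = 2.93e-05) in KC3. E2f2, a second activator, was dimmer, with 8.02, 8.16 and 8.33 in KC1, 7.58, 6.90 and 7.53 in KC2 and 7.60, 7.70 and 7.92 in KC3, against 8.70, 8.82 and 8.61 in KC4. KC4 lay above all other arrays and KC2 was lowest. KC2 minus KC4 was -1.37 (SE 0.18, limma adjusted p = 0.00024), a call, and KC3 minus KC4 was -0.97 (adjusted p = 0.00228), just under the minimum size.

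Ccnd2, which encodes cyclin D2, ran opposite to the group. It had 7.50, 7.59 and 7.56 in KC1, 6.72, 6.92 and 7.25 in KC2 and 9.68, 9.78 and 9.56 in KC3, against 8.17, 8.19 and 8.30 in KC4. KC3 lay above and KC2 below all other arrays. KC3 minus KC4 was 1.45 (SE 0.12, limma adjusted p = 1.67e-05) and KC2 minus KC4 -1.26 (SE 0.12, limma adjusted p = 3.27e-05), both calls in opposite directions, while KC1 minus KC4 was -0.67 (adjusted p = 0.00274). Of its 6 other probe sets, 3 were called higher in KC3 and the rest differed by 0.82 to 0.89.

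Cdk6, a kinase partner of the D cyclins, was also higher in KC3 than in KC1 and KC4. It had 11.63, 11.60 and 11.64 in KC1, 12.56, 12.62 and 12.62 in KC2 and 12.69, 12.78 and 12.65 in KC3, against 11.86, 11.91 and 11.94 in KC4. KC3 lay above and KC1 below all other arrays, with differences from KC4 of 0.80 (adjusted p = 7.56e-07) in KC3, 0.70 (adjusted p = 1.44e-06) in KC2 and -0.28 (adjusted p = 0.000749) in KC1. Its 2 other probe sets gave 0.98 and 0.73 in KC3 minus KC4. On the set used, KC3 minus KC2 did not pass the test. On the set with 0.73, KC2 averaged 9.54 ± 0.07 and KC3 9.43 ± 0.12. Cdk4 was higher than in KC4 by 0.43 (adjusted p = 0.00242) in KC1 and 0.60 (adjusted p = 0.000195) in KC2, with 0.20 (adjusted p = 0.0759) in KC3. Ccnd1, cyclin D1, did not pass the test in any line on the probe set used, with differences from KC4 of 0.12, 0.02 and 0.11 (SE 0.08 each). Its other probe sets disagreed: one gave 0.12, -0.10 and 0.04 in KC1, KC2 and KC3 minus KC4, none past the test, and the dimmest -0.15 (adjusted p = 0.113), -0.60 (adjusted p = 7.07e-05) and -0.54 (adjusted p = 0.000163).

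Set against the mean of the other 3 lines, KC3 had 10 members called lower (4.58% of all genes) and 1 called higher (2.77%), with 30 lower at any size (18.4%). The median difference over members was -0.59, against -0.04 over all genes. With arrays centred on the median it was -0.42, the median of all genes was 0.13 and 7 of the 11 calls were kept. The calls lost there were Mcm2, Mcm6, Orc6 and E2f1, at -0.90, -0.97, -0.86 and -0.89. Among genes with a mean log2 signal of at least 9, 9 members were called lower (3.54% of such genes) and 27 were lower at any size (26.3%).

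Against each other line singly, 5 members were called lower in KC3, Mcm4, Mcm5, Mcm6, Lig1 and Gins2 (1.54% of all genes were), and 1 was called higher, Ccnd2 (0.841%). At any size 24 members were lower in KC3 than in each other line (7.06%). For 25 members every KC3 array lay below the 9 other arrays, where 8.44% of all genes did so. KC3 had the lowest mean of the 4 lines for 30 of the 39 members, against 29.9% of all genes. In 14 members the means ran in the order KC4, KC1, KC2 and KC3, and the steps between neighbours did not all pass the test. This order was counted for the members only, so no share of all genes stands beside it.

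In the study's own contrast, the mean of the 3 highly metastatic lines minus KC4, 2 members were called lower, where 2.57% of all genes were, and 20 were lower at any size, where 15.3% were. They were Ccne2, at -1.76 (SE 0.08, limma adjusted p = 3.69e-07), and Orc6, at -1.14 (SE 0.09, limma adjusted p = 1.06e-05). Without KC3 the Orc6 difference was -0.89 and Ccne2 was the only call, and with the line as a random block Orc6 had an adjusted p of 0.0596. Leaving out KC1 gave 7 calls and leaving out KC2 gave 4, so the count depended on which lines stood for the class. The 2.57% of all genes belongs to the 3 lines together, and no such share is given beside these counts. KC4 was called higher than each highly metastatic line for Ccne2 (0.698% of all genes). At any size it was higher than each for 7 members, Mcm2, Mcm5, Cdt1, Gmnn, Orc6, Rrm1 and Ccne2 (4.68%). For 11 members every KC4 array lay above the other 9, where 6.90% of all genes did so. The 18S control gap given above runs along with these values.

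Other genes of the pathway were counted in the same way, on lists chosen with earlier results of these data known. The shares of all genes in KC3 minus KC4 were, as above, 4.70% called lower, 3.52% called higher, 16% lower and 17.8% higher at any size. Of 35 other replisome and origin genes, 5 were called lower and 0 higher in KC3 minus KC4, with 20 lower and 6 higher at any size and a median of -0.48, the count of higher genes being near the share of all genes. Clspn, the adaptor claspin of the replication checkpoint, averaged 10.10 ± 0.03 in KC1, 9.26 ± 0.07 in KC2 and 8.67 ± 0.10 in KC3, with 10.62 ± 0.06 in KC4, a class contrast of -1.27 (SE 0.05, limma adjusted p = 1.58e-07). Exo1, a DNA end-processing nuclease, had 8.53 ± 0.14 in KC3, against 9.81 ± 0.30 in KC1, 9.65 ± 0.19 in KC2 and 9.66 ± 0.15 in KC4, and KC3 minus the mean of the others was -1.17 (SE 0.13, limma adjusted p = 9.2e-05).

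The origin recognition subunits Orc2, Orc3, Orc4 and Orc5 ran the other way, each with its highest mean in KC3. Orc2 averaged 11.08 ± 0.10 in KC3, against 9.92 ± 0.03 in KC1, 9.34 ± 0.01 in KC2 and 10.12 ± 0.15 in KC4, and KC3 minus the mean of the others was 1.29 (SE 0.06, limma adjusted p = 4.38e-07). Orc5 averaged 11.04 ± 0.08 in KC3, against 9.71 ± 0.21 in KC1, 9.66 ± 0.10 in KC2 and 10.12 ± 0.06 in KC4, with 1.21 (SE 0.08, limma adjusted p = 3.89e-06). Neither Orc3 nor Orc4 was called, at 0.36 (adjusted p = 0.00694) and 0.41 (adjusted p = 0.001) in the same comparison, and their KC3 minus KC1 differences, 0.16 and 0.19, did not pass the test.

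Of 11 further nucleotide and S-phase chromatin genes, 2 were called lower in KC3 minus KC4 and 10 were lower at any size, with a median of -0.67. Uhrf1, which links DNA methylation to replication, averaged 9.93 ± 0.14 in KC3, against 11.96 ± 0.04 in KC1, 12.02 ± 0.06 in KC2 and 11.90 ± 0.07 in KC4, a KC3 minus mean of the others of -2.03 (SE 0.06, limma adjusted p = 2.28e-08). Of 24 other G1/S regulators, 7 were called lower and 1 higher in KC3 minus KC4, with a median of -0.65. Skp2, the ubiquitin ligase subunit that clears p27, averaged 8.17 ± 0.03 in KC3, against 9.39 ± 0.07 in KC1, 9.48 ± 0.14 in KC2 and 9.46 ± 0.15 in KC4, and KC3 minus the mean of the others was -1.28 (SE 0.07, limma adjusted p = 1.35e-06).

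Of the CDK4/6 inhibitor genes, Cdkn2b and Cdkn2a spanned a wider range over the lines than any member. Cdkn2b, encoding p15, averaged 10.51 in KC2 and 10.50 in KC3, against 4.19 in KC1 and 4.41 in KC4, where 3 of the 6 arrays lay at the floor of 4.00, so its differences are lower bounds. Cdkn2a averaged 5.29 ± 0.20 in KC1, 8.58 ± 0.01 in KC2 and 4.96 ± 0.33 in KC3, with 6.16 ± 0.04 in KC4, high in KC2 alone. Cdkn2c, encoding p18, averaged 10.15 ± 0.05 in KC1, 9.92 ± 0.03 in KC2 and 9.38 ± 0.21 in KC3, with 11.09 ± 0.13 in KC4, with a class contrast of -1.27 (SE 0.08, limma adjusted p = 4.37e-06).

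The mitotic genes, whose products act after replication, were lower in KC3 as well. Of 26 measured, 7 were called lower in KC3 minus KC4 and 22 were lower at any size, with a median of -0.73 and all 26 below 0, against 4.70% called lower, 16% lower at any size and 51.2% below 0 among all genes. Spc25, of the kinetochore complex that binds microtubules, averaged 7.69 ± 0.39 in KC3, against 10.00 ± 0.13 in KC1, 10.31 ± 0.19 in KC2 and 10.45 ± 0.19 in KC4, and KC3 minus the mean of the others was -2.56 (SE 0.16, limma adjusted p = 2.14e-06). Kif20a, a cytokinesis motor, had -1.24 (SE 0.07, limma adjusted p = 1.19e-06), Ccnb2, cyclin B2, had -1.13 (SE 0.09, limma adjusted p = 8.67e-06), and Nuf2, a partner of Spc25, had -1.02 (SE 0.23, limma adjusted p = 0.00726) in that comparison. The median of KC3 minus the mean of the others was -0.59 over the 39 members and -0.66 over the 26 mitotic genes.

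**Figure D3:**
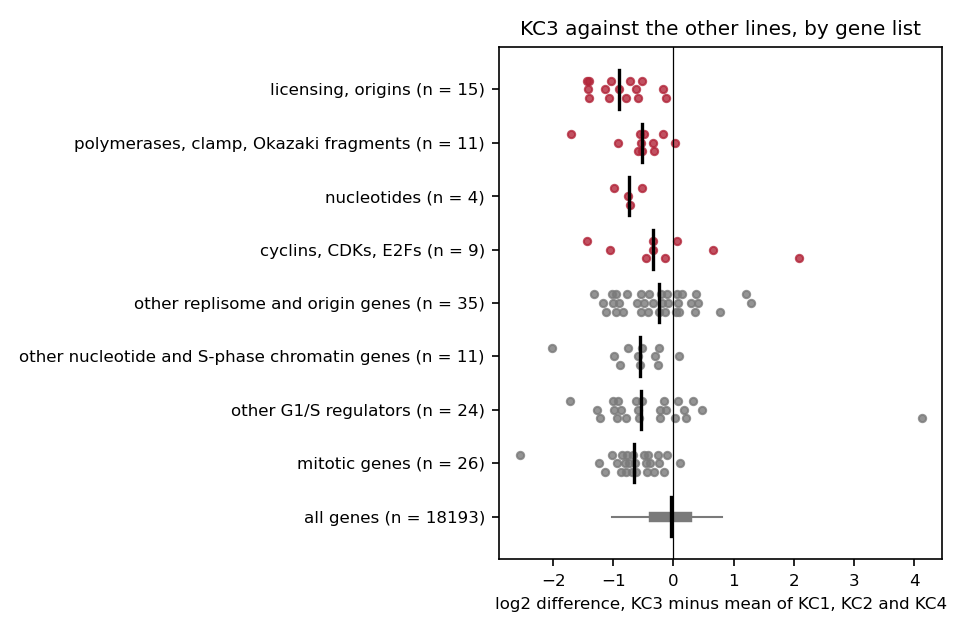
Points are genes and black ticks the median of each list; the x axis is the log2 difference of KC3 minus the mean of KC1, KC2 and KC4, with the 39 members in red, by role, above other genes in grey. The bottom row gives all 18193 genes by their 5th to 95th (line) and 25th to 75th percentiles (bar); the list medians lie below the median of all genes, -0.04, and the point at 4.13 is Cdkn2b.

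The 39 members had 91 probe sets in all, and 30 members had more than 1. Probe sets beside the one used, with a mean log2 signal of at least 6, were at hand for 9 of the 14 members called in KC3 minus KC4. Of these 13 probe sets, 11 were called in the same direction, none was called in the opposite one, and all 13 had the same sign. The 2 not called belong to Rrm2 and Ccnd2. The 6 probe sets with a mean under 6 were not called, with the same sign in each. Among called members, the sets used for Mcm4, Mcm5 and Rrm2 are of a design that can pick up related transcripts (names ending in x_at), as are those for Ccne1, Fen1 and Cdk4. A second probe set gave -1.44 for Mcm4 and -1.86 for Mcm5, both called, and the other Rrm2 sets gave -1.28, called, and -0.99, just under the minimum size. The second Gins2 probe set gave -2.82.

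**Figure D4:**
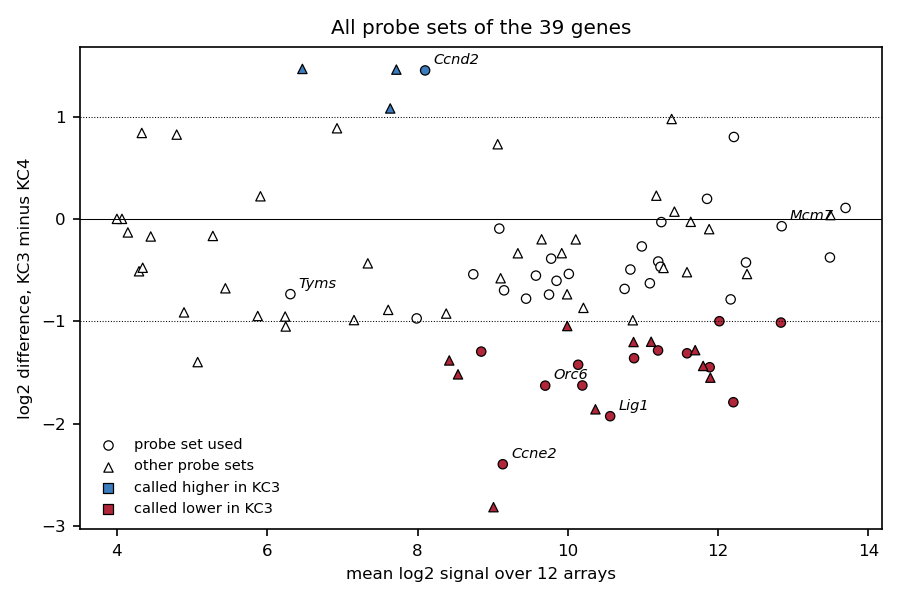
Each point is 1 of the 91 probe sets of the 39 genes, with its mean log2 signal over the 12 arrays on the x axis and the log2 difference of KC3 minus KC4 on the y axis; circles are the sets used, triangles the others, and filled symbols are called. Called sets have means above 6 and differences between 1.47 and -2.82, and dotted lines mark a difference of 1 in either direction.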

How the data were processed

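Total RNA was labelled with biotin and hybridised to one-colour Affymetrix 3′ arrays, per the labels' protocols. The deposited table holds 1 linear intensity per probe set and array, and the software behind this deposited intensity was not given in the sources used here. Judging by the values, the authors' scaling gave every array the same mean after trimming 2% at each end, so a change in total RNA per cell would not be seen. Of 45101 probe sets, 64 were controls, 34945 had 1 symbol in the platform annotation, 932 had several and 9160 were unnamed here.

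Signals were floored at 16 and log2 values taken, and the probe set with the highest mean stood for each of 18193 genes. Lines were compared with limma 3.58.1 in R 4.3.3 (lmFit, eBayes, 12 arrays), with Benjamini-Hochberg adjustment over all genes. Figures were drawn with matplotlib 3.10.9. The fit was also run on simulated data, whose settings and outcome are not given here, so that run is no support for the results. Values on every array are given for the 20 members with the largest differences among the 30 that were called or set a line apart at any size, and at most 4 called genes are named per other list. The members and lists were chosen with earlier results of these data known. Some listed genes are not reported here. Precision is limited by 3 arrays per line. Alternatives were the replicate block, leaving out arrays or lines, other normalization, probe set, floor, filter and prior choices, the minimum difference and the handling of the line.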

Additional observations from a re-analysis of the deposited data

Results flagged for a closer look

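For 6 members the differences of a pair of highly metastatic lines from KC4 passed the test in opposite directions, and the lines differed from each other in the limma fit, as for 7.62% of all genes. Cdc6 was lower in KC3 and higher in KC1 relative to KC4, and KC3 minus KC1 was -1.87 (SE 0.08, limma adjusted p = 3.8e-07). The same gene was lower in KC2 and higher in KC1, with KC2 minus KC1 at -0.99 (SE 0.08, limma adjusted p = 3.34e-05). Rfc3 gave -1.10 (SE 0.07, limma adjusted p = 2.42e-06) in KC3 minus KC1.

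Tyms was lower in KC3 and higher in KC2 relative to KC4, with KC3 minus KC2 at -1.20 (SE 0.15, limma adjusted p = 0.000153), on a dim probe set. Gins1 gave -0.95 (SE 0.11, limma adjusted p = 7.67e-05) in the same comparison.

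Ccnd2 was higher in KC3 and lower in KC1 and KC2 relative to KC4, with KC3 minus KC1 at 2.12 (SE 0.12, limma adjusted p = 1.7e-06) and KC3 minus KC2 at 2.71 (SE 0.12, limma adjusted p = 2.63e-07). Cdk6 was higher in KC3 and KC2 and lower in KC1, with KC3 minus KC1 at 1.08 (SE 0.04, limma adjusted p = 1.5e-07) and KC2 minus KC1 at 0.98 (SE 0.04, limma adjusted p = 5.46e-07). The paired differences share the KC4 arrays. With 3 arrays per line, no single array was tested for standing apart.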

How the results depend on the processing

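Single values were followed over the alternatives for the 15 members called in at least 1 comparison with KC4. Of these values 0 reversed, but a change of sign counted only where the main fit or the alternative gave a call. Medians, counts and the other members could not be labelled in this way. With the replicate block the counts of calls were the same, 1 in KC1, 3 in KC2 and 14 in KC3 minus KC4, 2 in the contrast of class, 11 in KC3 minus the mean of the others and 19 over the 3 pairs of highly metastatic lines. The labels tie nothing but a number to each replicate, and over 18 same-numbered pairs the correlation of deviations ran from -0.32 to 0.31, with 3 pairs over 0.1. Leaving out 1 array at a time gave 0 to 1, 3 to 4, 12 to 15, 2 to 3, 10 to 12 and 18 to 21 calls in the same order, and medians over members of -0.10 to -0.06, -0.27 to -0.20 and -0.74 to -0.61 in KC1, KC2 and KC3 minus KC4 and of -0.65 to -0.55 in KC3 minus the mean of the others. The KC1 call, Ccne2, was lost without KC1 replicate 1 and without KC4 replicate 2. A minimum difference of 0.5 gave 4, 13, 27, 12, 27 and 60 calls, and one of 2 gave 0, 0, 1, 0, 1 and 2, by construction. With arrays centred on the median, KC3 minus the mean of the others had 7 calls, and the medians over members were -0.16 in KC1, -0.55 in KC3 minus KC4 and -0.42 in KC3 minus the mean of the others. A pseudocount of 16 gave 0 calls in KC1 minus KC4. In the contrast of class, averaging over a gene's probe sets gave 4 calls, the line as a random block 1, and leaving out KC1, KC2 or KC3 gave 7, 4 or 1. The causes were not tested. Shares of all genes given above belong to the main fit and not to these alternatives. Among the 15 members followed singly, 1814 values kept their side of the threshold, 54 lost a call and 52 gained one. The minimum difference of 2 gave 29 of these losses and that of 0.5 gave 23 of the gains, by construction.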
